A study of Drosophila melanogaster with 2 samples.

Results

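The respiratory chain and ATP synthase genes of Drosophila melanogaster were taken as the protein-coding genes whose symbol starts with ND-, UQCR-, COX or ATPsyn, together with Cyt-c1, RFeSP, SdhA, SdhB, SdhC and SdhD. The rule found 86 of the 13968 protein-coding genes annotated on the 7 chromosome arms: 40 of complex I, 4 of complex II, 11 of complex III, 16 of complex IV and 15 of ATP synthase, also called complex V. Among them 21 carry a symbol that marks them as like another subunit gene, such as COX7AL or ND-51L1, and these like-named genes are counted apart where that matters. Ada2b, an adaptor subunit of SAGA, a coactivator with the Gcn5 acetyltransferase for histones, was mapped by chromatin immunoprecipitation and sequencing (ChIP-seq) in whole embryos aged 0 to 18 h. The flies, strain Ada2b-GFP, carried a transgene for an Ada2b-eGFP fusion protein, the chromatin was sonicated to 200 to 800 bp, and an antibody to GFP was used for the precipitation. There were 2 biological replicates of this 1 group, both of the same strain, and a control that entered the authors' peak calling was not analysed here. The labels do not say whether untagged Ada2b remained in these flies, and the embryos mix ages and cell types, so a peak present in few cells cannot be told apart from a weak peak in many.

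Respiratory chain complexes I to IV pass electrons from NADH and succinate to oxygen in the mitochondrial inner membrane, and complexes I, III and IV pump protons as they do so. ATP synthase lets the protons flow back and makes ATP. Most subunits are encoded in the nucleus, as all of the genes described here are, while a smaller set is encoded in mitochondrial DNA, so the complexes are built from products of both genomes. In the early embryo the mitochondria and much of this machinery come from the mother.

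A promoter peak was defined as a peak whose summit lay within 500 bp of any annotated transcription start site of the gene, and a peak counted for every gene in reach. The conservative list of peaks, which the authors made from both replicates by thresholding on the irreproducible discovery rate (IDR, a measure of how well peak ranks repeat), held such a peak at 13 of the 86 genes. This was 15.1% (95% Clopper-Pearson interval 8.3 to 24.5, counting error only), against 17.5% of all protein-coding genes. Replicate 1's own list held a promoter peak at 10 genes (11.6%, against 14.2% of all genes) and replicate 2's at 13 (15.1%, against 13.2%). Over the replicates the share was 13.4% ± 2.47 (SD, n = 2). The other thresholded list of both replicates held 15 genes (17.4%, against 17.9%). Each of these shares lay near the share of all genes. The peaks of 9 genes were in both replicates' own lists, and 15 genes had a peak in the conservative list or in at least 1 replicate.

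By complex, the conservative list held a promoter peak at 8 of 40 genes of complex I (20%, interval 9.05 to 35.6), with 6 in replicate 1 and 9 in replicate 2. It held none at the 4 genes of complex II (interval 0 to 60.2), and the lists of both replicates held none there either. Complex III had 1 of 11 (9.09%, interval 0.23 to 41.3), and that gene had no peak in either replicate's own list. Complex IV had 2 of 16 (12.5%, interval 1.55 to 38.3), with 3 in replicate 1 and 2 in replicate 2. ATP synthase had 2 of 15 (13.3%, interval 1.66 to 40.5), with 1 in replicate 1 and 2 in replicate 2. The intervals of the complexes overlapped one another, and each included the 17.5% of all genes. Differences between complexes were not tested, and overlap of intervals does not decide them. Without the like-named genes the counts were 8 of 34 in complex I, 0 of 8 in complex III, 2 of 8 in complex IV and 2 of 11 in ATP synthase.

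**Figure D1:**
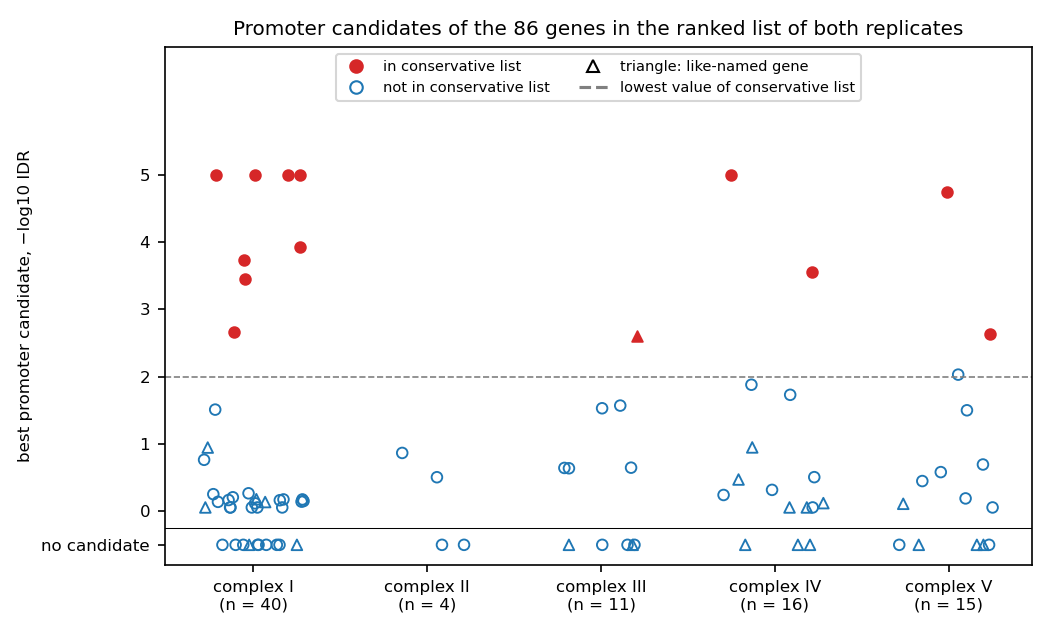
Best promoter candidate of each gene in the authors' ranked list that pairs the replicates, as −log10 IDR (vertical axis), by complex (horizontal axis). Each point is 1 gene, filled where the conservative list holds its peak, and points in the bottom band had no candidate within 500 bp; 13 genes lie above the dashed line with a conservative peak, and ATPsynC lies just above it without one.

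Among the core subunits of complex I, conservative peaks lay at ND-51 and ND-24. Each was shared with an opposite-strand gene, CG13994 at ND-51 and corolla at ND-24. The conservative summit was nearer to ND-51 than to CG13994, while the summits of both replicates were nearer to CG13994. ND-51 (FBgn0031771) encodes the flavoprotein that binds NADH and the flavin, and its peak, at 2L 6062712 to 6063021, had a signal of 185 in the conservative list, 104 in replicate 1 and 77.6 in replicate 2. ND-24 (FBgn0030853) encodes the iron-sulfur protein beside it, and its peak, at X 17632064 to 17632373, had signals of 167, 84.1 and 84.7. Signal is the value given by the authors' peak calling, it is not comparable between lists, and it is used here to rank peaks within a list. Among the promoter peaks of its own list, ND-51 stood at percentile 78.5 in the conservative list and at 70.2 ± 3.32 over the replicates (SD, n = 2), and ND-24 stood at 75.6 and at 67.4 ± 5.87. The pair differed by less than the spread between replicates. Another core subunit, ND-23, which holds iron-sulfur clusters on the way to ubiquinone, had a weak peak in replicate 2 only (signal 18.4, percentile 1.55) and one of 44.8 in the other thresholded list. The remaining core subunits encoded in the nucleus, ND-75, ND-49, ND-30 and ND-20, had no promoter peak in any thresholded list. The core thus had 2 of 7 genes with a conservative peak (28.6%, interval 3.67 to 71.0). The accessory subunits without like-named genes had 6 of 27 (22.2%, interval 8.62 to 42.3). Both intervals included the 17.5% of all genes, and this split was chosen after seeing the data.

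Of the accessory subunits, ND-ASHI (FBgn0029888) carried the strongest peak of all 86 genes. It lay at X 6679268 to 6679468 with a signal of 364 in the conservative list, 243 in replicate 1 and 124 in replicate 2, and stood at percentile 93.1 in the first of these and at 88.7 ± 6.29 over the replicates. The summit lay 245 bp upstream of ND-ASHI and 277 bp upstream of Fum1, the gene of the Krebs cycle enzyme fumarase, whose start site faces away from it on the other strand, so the peak was counted for both. ND-42 (FBgn0019957), at 3R 22027348 to 22027657, had signals of 86.0, 44.0 and 43.0, with percentiles of 44.3 and 26.7 ± 7.85. Its peak was shared with Cchl, the gene of the lyase that attaches heme to cytochrome c, and the summit lay 23 bp from the start of Cchl and 206 bp from that of ND-42. Both partners encode enzymes that act in mitochondria.

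Sequences are shown for 6 of these shared promoters, because the peaks lie between a respiratory gene and a gene read in the opposite direction, and the letters show the DNA between the starts nearest to the summit. All are of the dm6 assembly (NCBI Release 6), 5′ to 3′ on the strand of the respiratory gene. Except for ND-ASHI, base 1 is the partner's start site nearest to the summit and the last base is the respiratory gene's start site nearest to it, and some of these genes have others. COX5A has another start at 11819359, beyond the start of glo shown here, and ND-24 has another at 17632089, inside the stretch and 42 bp from the start of corolla. Capitals mark matches on either strand to the DRE (TATCGATA), to Ohler core promoter motifs 1, 6 or 7, which are given by name, or to the E-box CAGCTG. The stretch between glo and COX5A is chr3R:11819420-11819599 on the plus strand, 180 bases with the summit at base 95 and a motif 6 match on the reverse strand at bases 80 to 91. That between Sec13 and ATPsynCF6 is chr3R:23356064-23356278 on the minus strand, 215 bases with the summit at base 99 and an E-box at bases 117 to 122. That between Cchl and ND-42 is chr3R:22027480-22027709 on the plus strand, 230 bases with the summit at base 24 and a motif 7 match at bases 217 to 229. That between CG13994 and ND-51 is chr2L:6062757-6062989 on the minus strand, 233 bases with the summit at base 123 and an E-box at bases 189 to 194. That between corolla and ND-24 is chrX:17632047-17632321 on the plus strand, 275 bases with the summit at base 173 and a motif 7 match at bases 222 to 234. For ND-ASHI and Fum1, whose starts are farther apart, the 201 bases of the peak itself are given, chrX:6679268-6679468 on the minus strand, with the summit at base 106. Its capitals are a pair of motif 7 matches that overlap, at bases 160 to 172 and, on the reverse strand, 161 to 173.
COX5A: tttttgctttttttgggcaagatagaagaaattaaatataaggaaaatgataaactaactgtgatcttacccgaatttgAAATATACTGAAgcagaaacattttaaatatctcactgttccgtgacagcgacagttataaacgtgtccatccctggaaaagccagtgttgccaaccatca
ATPsynCF6: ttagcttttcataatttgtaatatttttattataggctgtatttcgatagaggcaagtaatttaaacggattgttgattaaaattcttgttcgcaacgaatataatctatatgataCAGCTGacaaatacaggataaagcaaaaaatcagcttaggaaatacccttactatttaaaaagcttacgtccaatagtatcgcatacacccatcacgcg
ND-42: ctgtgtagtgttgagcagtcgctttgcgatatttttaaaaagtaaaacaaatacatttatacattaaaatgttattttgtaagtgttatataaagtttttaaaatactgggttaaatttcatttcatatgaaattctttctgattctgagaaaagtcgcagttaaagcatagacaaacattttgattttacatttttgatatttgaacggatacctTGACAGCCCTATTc
ND-51: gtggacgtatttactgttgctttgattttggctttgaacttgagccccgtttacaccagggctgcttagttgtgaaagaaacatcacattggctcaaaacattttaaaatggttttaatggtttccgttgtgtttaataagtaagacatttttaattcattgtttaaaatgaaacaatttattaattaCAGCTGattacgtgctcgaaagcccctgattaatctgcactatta
ND-24: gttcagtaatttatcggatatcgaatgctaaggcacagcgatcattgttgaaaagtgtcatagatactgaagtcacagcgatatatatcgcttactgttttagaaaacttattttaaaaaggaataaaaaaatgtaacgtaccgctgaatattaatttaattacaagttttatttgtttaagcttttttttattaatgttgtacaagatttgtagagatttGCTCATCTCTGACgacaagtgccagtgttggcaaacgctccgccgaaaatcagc
ND-ASHI: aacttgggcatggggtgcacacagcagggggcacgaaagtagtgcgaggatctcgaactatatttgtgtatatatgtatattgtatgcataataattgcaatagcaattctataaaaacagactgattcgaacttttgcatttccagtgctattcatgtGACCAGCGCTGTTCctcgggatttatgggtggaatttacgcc

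In these sequences the summit fell near the middle of the stretch at COX5A, ATPsynCF6 and ND-51, and close to the partner's start at ND-42. No match covered the summit base, and the closest was the motif 6 match at COX5A, which ended 4 bases before it. A match describes letters only and was not taken as a bound site.

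The other accessory subunits of complex I covered a wide range of signal. ND-MWFE (FBgn0085468), at 2R 13158419 to 13158569, had signals of 242, 141 and 97.6 in the conservative list, replicate 1 and replicate 2, and stood at percentile 85.7 and at 79.7 ± 3.96 over the replicates. Its peak was the narrowest of the set, 151 bp against the common width of 310 bp shared by 11 of the 13, and its summit lay 27 bp from the start of TppII, a tripeptidyl peptidase gene on the other strand. ND-SGDH (FBgn0011455), at 3L 12138478 to 12138787, had signals of 75.8, 41.3 and 40.9 (percentiles 36.0 and 22.5 ± 7.64). In replicate 1 its promoter held overlapping peaks with summits 13 bp downstream and 187 bp upstream of the start, where the conservative summit lay 49 bp upstream. ND-MNLL (FBgn0029971), at X 7893736 to 7894045, had a signal of 74.8 in the conservative list and 36.5 in replicate 2, and ND-B17 (FBgn0001989), at 2L 15751023 to 15751332, had 61.2 and 30.7. Both were missing from replicate 1's own thresholded list. Its ranked list held candidates at both below the threshold, with signals of 38.1 at ND-MNLL (−log10 IDR 1.6) and 28.5 at ND-B17 (0.397). These genes thus passed the threshold in replicate 2 and in each thresholded list made on both replicates together, but not in replicate 1.

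Complex IV, cytochrome c oxidase, passes the electrons to oxygen. COX5A (FBgn0019624) encodes one of its nuclear subunits, and its peak at 3R 11819359 to 11819668 had signals of 132, 74.3 and 57.5 in the conservative list, replicate 1 and replicate 2. It stood at percentile 66.2 in the conservative list and at 54.2 ± 4.24 over the replicates, and the replicates placed the summit at the same base, 86 bp upstream of the nearest start. COX5B (FBgn0031830), at 2L 6557423 to 6557732, was weaker and varied more, with signals of 78.9, 46.4 and 30.7 and percentiles of 38.5 and 16.0 ± 12.5. COX5A ranked above COX5B in all 3 lists, and their replicate percentiles did not overlap. COX7C had a peak in replicate 1 only, with a signal of 20 at percentile 3.16 and the summit 119 bp downstream.

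ATP synthase had conservative peaks at ATPsynCF6 and ATPsynE. ATPsynCF6 (FBgn0016119), which encodes coupling factor 6 of the stalk that holds the catalytic head, had a peak at 3R 23356025 to 23356334 with signals of 113, 57.7 and 53.9, and percentiles of 59.3 and 44.2 ± 4.38. ATPsynE (FBgn0038224), the gene of a small membrane subunit, had a peak at 3R 14326797 to 14327106 with a signal of 54.6 in the conservative list and 28.9 in replicate 2, at percentiles 13.7 and 4.58. Replicate 1's thresholded list held none, and its ranked list held a candidate below the threshold (signal 25.7, −log10 IDR 0.512). Without replicate 2, ATP synthase therefore kept 1 gene with a promoter peak in place of 2. The catalytic subunit gene ATPsynbeta and the central stalk genes ATPsyngamma and ATPsyndelta had no promoter peak in any thresholded list.

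Complex II had no gene with a conservative peak and complex III had 1, and the interval of either share included the 17.5% of all genes. SdhA and SdhB, the catalytic subunits of succinate dehydrogenase, had no candidate within 500 bp in the ranked list that pairs the replicates, although replicate 2's ranked list held a low one at each (−log10 IDR 0.0508). SdhC and SdhD, its membrane anchors, had candidates with a −log10 IDR of 0.505 and 0.866, where the lowest value in the conservative list was 2.0. The conservative summits nearest to SdhA and SdhB lay 890 and 2238 bp from their starts. In complex III the only conservative peak was that of UQCR-6.4L (FBgn0262842), a gene named as like UQCR-6.4, at 3L 16566114 to 16566423, with a signal of 53.0 at percentile 11.9. Its summit, 481 bp upstream, lay just inside the 500 bp limit, while those nearest to SdhA and UQCR-14, at 890 and 896 bp, were the nearest outside it. Cyt-c1, the cytochrome that hands electrons to cytochrome c, had peaks in the other thresholded list only, with signals of 50.9, at percentile 10.7, and 2.84. UQCR-C1 and UQCR-C2, the large core proteins, had candidates at 1.57 and 0.647 of −log10 IDR, UQCR-14 at 0.643 and UQCR-Q at 0.638. RFeSP, the Rieske iron-sulfur protein, UQCR-11, UQCR-11L, UQCR-14L and UQCR-6.4 had none in that list.

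Over the 13 genes the conservative signal ran from 53.0 to 364 with a median of 86.0, where the median of all 1959 promoter peaks was 94.6. The median percentile was 44.3, and 6 of the 13 stood above the 50th. In replicate 1 the median signal of the genes with a peak was 66.0, against 65.1 for all promoter peaks, and in replicate 2 it was 43.0 against 56.2. The median percentile was 49.2 over the 10 genes of replicate 1 and 32.2 over the 13 of replicate 2, which are not the same genes. Over the 9 genes in both lists the medians were 57.2 and 51.2, and 4 of them stood higher in replicate 2 and 5 lower. The SD of a gene's percentile over the replicates ran from 3.32 to 12.5 with a median of 5.87 (9 genes, n = 2 each). The gap between ND-ASHI at the top and COX5B at the bottom was larger than this spread. ND-42, ND-SGDH and COX5B, which follow one another in the order of mean percentile, differed from their neighbours among these by less than the larger SD of the pair.

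**Figure D2:**
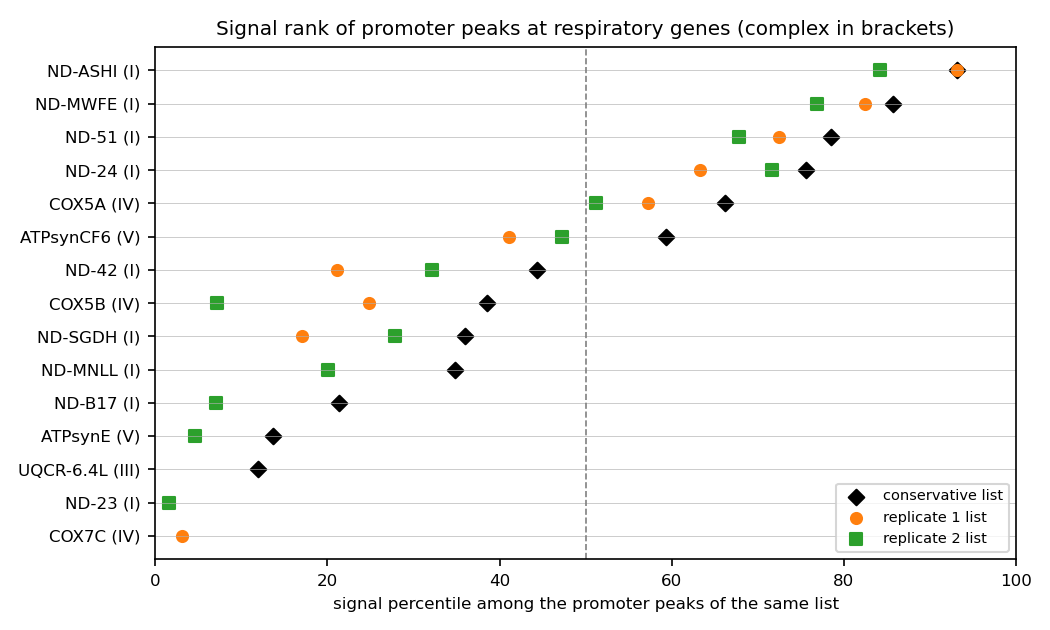
Signal percentile of each promoter peak among the promoter peaks of the same list (horizontal axis), for each gene with a peak in the conservative list or in a replicate's own list (vertical axis, complex in brackets). Symbols mark the list; ND-ASHI, ND-MWFE, ND-51 and ND-24 lie above 60 in all 3 lists, and ND-MNLL, ND-B17, ND-23, ATPsynE and UQCR-6.4L have no replicate 1 point.

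Sharing at least 1 bp, 9 of the 13 conservative peaks were found again in replicate 1's list, 12 in replicate 2's and 9 in both, and the peak of UQCR-6.4L was found in neither. Of all 1959 promoter peaks of the conservative list, 1429 (72.9%) were found in replicate 1, 1320 (67.4%) in replicate 2 and 1143 (58.3%) in both. Where both replicates had the peak, their summits lay 0 to 138 bp apart, with a median of 14 bp. ND-SGDH, with 138 bp, and ND-42, with 104 bp, were the widest apart.

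Most summits lay upstream of the nearest start site of the gene. Their median position was -110 bp from it, from -481 bp at UQCR-6.4L to 5 bp downstream at ATPsynE, and 12 of the 13 were upstream. Over all promoter peaks, each measured from the nearest start of any gene, the median was -113 bp and 82.4% were upstream. In the replicates' own lists the medians of the set were -127 and -125 bp against -120 bp for all promoter peaks in each. These measures are unlike, because the set was measured from the respiratory gene even where another gene's start was nearer. That held for 4 of the 13 conservative summits, and its effect on the medians was not tested. COX5A and ND-24 have a further start upstream of the one nearest the summit, and their summits lay 155 and 130 bp downstream of that start, inside the annotated gene. Measured from the most upstream start of each gene, which was added after seeing the data, 10 of the 13 summits were upstream (76.9%, against 60.9% of all promoter peaks), with a median of -110 bp against -65 bp.

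Most of the peaks lay in promoters shared with a gene on the other strand. Of the 13 peaks, 11 (84.6%) were also within 500 bp of the start of an opposite-strand gene, against 649 of the 1959 promoter peaks in all (33.1%). A peak shared by a pair of genes has a chance to be counted through either, so the same was counted per gene: 1524 of all 2444 genes with a conservative peak (62.4%) had an opposite-strand start within 1000 bp upstream, against 11 of these 13. Their partners were Fum1, Cchl, TppII, CG13994, corolla, glo, Sec13, IFT52, RhoGAP68F, p115 and Afti. They included glo, an RNA-binding translational repressor, Sec13, a coat protein of secretory vesicles and of the nuclear pore, IFT52, of transport in cilia, p115, a Golgi tether, and corolla, of the synaptonemal complex. The paired starts, taken as those nearest to the summit, lay 179 to 522 bp apart, with a median of 233 bp. The conservative summit fell between both starts in 10 of the 11, the exception being ATPsynE. It was nearer to the partner at ATPsynCF6, COX5B, ND-42 and ND-MWFE. The replicates differed at some of the 10. The replicate 2 summit at ND-42 lay 30 bp downstream of the start of Cchl. The stronger replicate 1 summit at ND-SGDH lay 13 bp downstream of the start of ND-SGDH. The signal of a shared peak cannot be assigned to either gene, and with each peak given to the nearest start alone the count fell from 13 to 9 genes. ND-MNLL is among these 9 by a tie, because CG45089 on the same strand has a start at the same distance, 93 bp from the summit. ND-B17 and UQCR-6.4L had their peaks to themselves, with the next protein-coding start 1085 bp (Mtr4) and 6132 bp (Mipp1) from the summit.

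**Figure D3:**
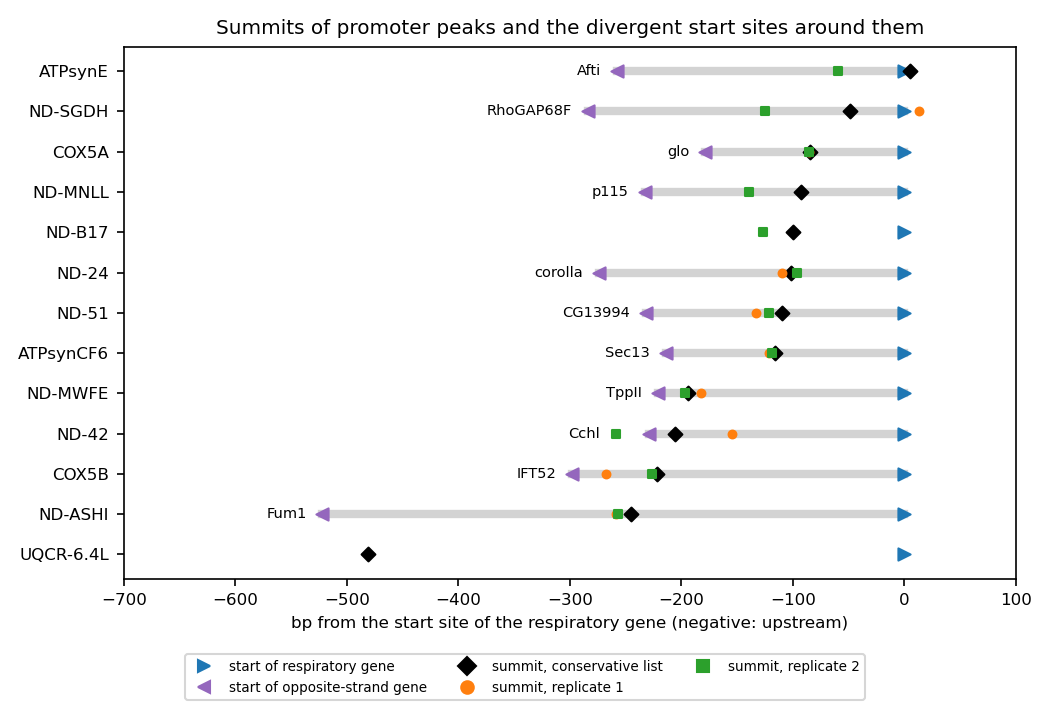
Position of each promoter summit relative to the start of the respiratory gene in bp (horizontal axis, negative upstream), for the 13 genes with a conservative peak. Diamonds, circles and squares are the conservative, replicate 1 and replicate 2 summits, each placed by its distance from the gene's start nearest to it. Triangles are the start sites nearest to the conservative summit with the partner named, and the grey bar joins a pair of starts. The replicate 2 square of ATPsynE, at -60 bp, was measured from another start, 121 bp downstream of the one drawn. That summit therefore lies downstream of the drawn start, not on the bar. Of the conservative summits, 10 fall on such a bar between the starts.

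Divergent layout was also common among the respiratory genes without a peak, at 33 of 73 (45.2%, against 30.6% of all genes without a peak). An opposite-strand start within 1000 bp upstream was found for 44 of the 86 genes (51.2%), against 5052 of all genes (36.2%), and for 3 of the 21 like-named genes against 41 of the other 65. Of the 44 divergent genes, 11 had a conservative peak (25%, interval 13.2 to 40.3), where the share of all divergent genes was 30.2%. Of the 42 others, 2 had one (4.76%, interval 0.582 to 16.2), against 10.3% of all such genes. Both of these intervals included the share of all genes of the same layout. In replicate 1 the counts were 10 of 44 (22.7%, against 24.3%) and 0 of 42 (interval 0 to 8.41, just below the 8.48% of all such genes). In replicate 2 they were 12 of 44 (27.3%, against 23.6%) and 1 of 42 (2.38%, interval 0.0603 to 12.6, against 7.27%). Divergent genes without a peak included ND-B16.6, whose partner kdn encodes citrate synthase. ATPsynD, another of them, lies opposite mRpL55, a gene of a mitochondrial ribosomal protein, and also opposite cdi. Others lay opposite genes such as SCAR (ATPsynG), hiw (ND-B18) and msl-2 (ND-PDSW). The examples were picked, and partners were not counted by function.

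**Figure D4:**
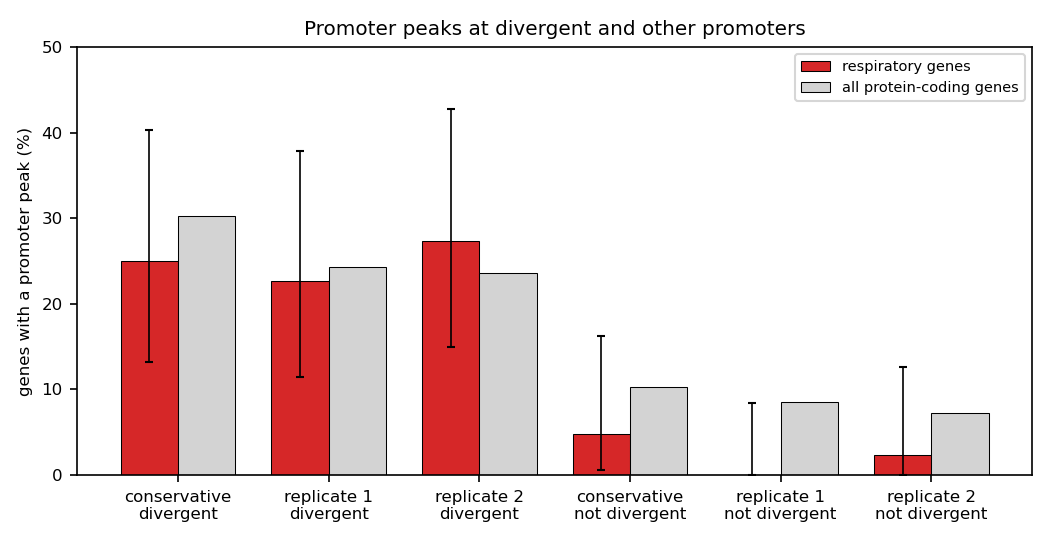
Share of genes with a promoter peak in % (vertical axis) in each list, for genes with an opposite-strand start within 1000 bp upstream and for the others. Red bars are the 44 divergent and 42 other respiratory genes with 95% Clopper-Pearson intervals, and grey bars are all protein-coding genes; in the conservative list the red bars stand at 25% and 4.76% and the grey bars at 30.2% and 10.3%.

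The like-named genes had 1 peak among 21 (4.76%, interval 0.12 to 23.8), that of UQCR-6.4L, and none in either replicate's own list. The other 65 genes had 12 (18.5%, interval 9.92 to 30.0), 10 and 13 in the lists of replicates 1 and 2 (17.7% ± 3.26, SD, n = 2). The intervals overlapped.

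The core promoter elements of the set were described within 150 bp of the most upstream start, on both strands. At least 1 of the DRE, motif 1, motif 6 and motif 7 was found at 35 of the 86 genes (40.7%), against 2899 of all 13968 promoters (20.8%) and 31.3% of all genes with a peak. All 35 were among the 65 genes that are not like-named (53.8%), and the 21 like-named genes had none. For scale, 3 counts among these would be 14.3%, a rough limit and not a Clopper-Pearson interval as given elsewhere. Genes with a peak had such an element in 9 of 13 and genes without one in 26 of 73 (35.6%). By element, the DRE was found at 9 genes (10.5%, against 8.53% of all promoters), motif 1 at 13 (15.1%, against 4.23%), motif 6 at 5 (5.81%, against 1.93%) and motif 7 at 13 (15.1%, against 8.87%). The E-box CAGCTG was found at 25 (29.1%, against 18.1%).

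Sequence elements of other kinds were counted in the same window. GAGAG, the core of sites for GAGA factor, was found at 22 genes (25.6%, against 30.7%), the TATA box letters TATAAA at 35 (40.7%, against 40%) and the initiator letters TCAGT at 36 (41.9%, against 52.4%). From 250 bp before to 50 bp after the start, TATAAA was found at 46 (53.5%, against 45.8%). The nuclear respiratory gene (NRG) element, given by name and sought with a consensus from general knowledge, was found at none of the 86 and at 0.609% of all promoters. Among the genes with a peak, motif 1 was found at COX5A, COX5B, ND-B17 and ND-MWFE, and motif 7 at ND-42, ND-SGDH, ND-MNLL and ATPsynCF6. Within 150 bp of the summits, motif 7 was found at 6 of the 13 peaks (46.2%, against 14.4% of all promoter peaks), the E-box at 7 (53.8%, against 20%), the DRE at 3 (23.1%, against 9.19%), motif 6 at 2 (15.4%, against 1.33%) and motif 1 at 1 (7.69%, against 3.16%). TATAAA and TCAGT were each found at 8 (61.5%, against 47.1% and 45.2%). GAGAG was found at none of these summits (against 32.9%), but near the starts of the same 13 genes it was found at 4 (30.8%, against 31.2% of all genes with a peak). Windows of neighbouring genes overlap, so a match can be counted for both genes of a pair. The shares around the summits were not matched for layout. Of the 13 peaks, 11 were within 500 bp of an opposite-strand start, against 33.1% of all promoter peaks. Whether layout moved these shares was not tested.

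**Figure D5:**
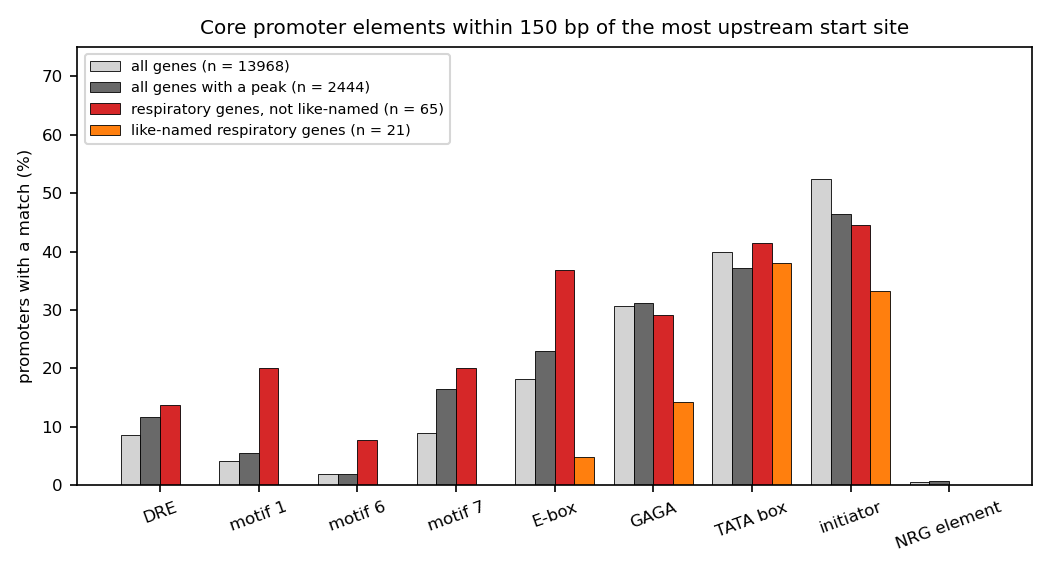
Share of promoters with a match to each element within 150 bp of the most upstream start in % (vertical axis), for all genes, all genes with a peak, the 65 respiratory genes that are not like-named and the 21 like-named ones. Motif 1 stands at 20% of the 65 genes against 4.23% of all genes, and the like-named genes have no bar for the DRE or motifs 1, 6 and 7.

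The ranked lists hold candidate peaks, most of them below the threshold. No ranked list holds every candidate: ATPsynbeta and ND-75 had one in a replicate's ranked list and none in the list that pairs the replicates. In the list that pairs the replicates 61 of the 86 genes had a candidate within 500 bp of a start (70.9%, against 70.7% of all genes), in replicate 1's ranked list 48 (55.8%, against 61.9%) and in replicate 2's 58 (67.4%, against 57.3%). By complex the paired list held 30 of 40 in complex I, 2 of 4 in complex II, 6 of 11 in complex III, 13 of 16 in complex IV and 10 of 15 in ATP synthase. In the same order of complexes, replicate 1's ranked list held 23, 2, 7, 9 and 7 genes and replicate 2's held 27, 4, 5, 12 and 10. In the paired list the share lay beside that of all genes, while it was lower than that of all genes in replicate 1 and higher in replicate 2. Entries of the ranked lists are candidates, not calls.

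Among the 73 genes without a conservative peak, 48 had a candidate (65.8%, against 64.5% of the 11524 such genes in all), with a median −log10 IDR of 0.224 against 0.172 and a median signal of 25.8 against 21.1. The 5 next in line were ATPsynC, COX7B, COX8, UQCR-C1 and Cyt-c1. ATPsynC, which encodes the membrane ring of ATP synthase, had 2.03, past the lowest value of the conservative list, with a signal of 44.1 and the summit 20 bp upstream, but that list does not hold it. It is 1 of 106 candidates of the paired list at or past this value that the conservative list lacks. COX7B had 1.88 (signal 47.2) and COX8 had 1.73 (signal 44.6), both small subunits of cytochrome c oxidase. Cyt-c1 had 1.53 at a candidate whose joint signal was 2.84, while the signals given for the pair of inputs were 20.4 and 22.9. Of the 20 like-named genes without a conservative peak 10 had a candidate, and of the other 53 genes 38 had one, and their median signals were 14.1 and 28.6.

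Outside the promoters, no conservative peak had its summit inside the body of any of the 86 genes. Of the 73 genes without a promoter peak, 2 (SdhA and UQCR-14) had a conservative summit within 1000 bp of a start (2.74%, against 3.91% of all genes without a promoter peak). Within 5000 bp there were 31 (42.5%, against 28.6%), and the median distance was 7166 bp against 10110 bp. The respiratory genes were also short, with a median length of 1100 bp against 2164 bp for all genes, and whether gene density moved these distances was not tested.

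Genes that serve the same complexes but fall outside the symbol rule were counted in the same way. Of 10 further subunits and carriers, 4 had a conservative peak (40%, interval 12.2 to 73.8), with 3 in each replicate: Cyt-c-d, one of the cytochrome c genes (signal 409, 391 bp downstream), levy (223) and cype (53.1), which encode cytochrome c oxidase subunits, and blw (195), which encodes the alpha subunit of the ATP synthase head. Of 9 assembly factors, 3 had one (33.3%, interval 7.49 to 70.1), and CIA30, an assembly factor of complex I, had a signal of 1590 at percentile 99.8, higher than any subunit gene of the rule. That peak, 118 bp upstream of CIA30, was shared with CG7601. Cox17, a copper chaperone for cytochrome c oxidase, had 81.4 and Coa8 had 62.0. The intervals are wide and include the share of all genes for both groups.

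The pathway that feeds the chain and the machinery that expresses mitochondrial DNA were counted as well, against the same 17.5% of all genes. Of 15 genes of the Krebs cycle and pyruvate dehydrogenase, 4 had a conservative peak (26.7%, interval 7.79 to 55.1): Fum1, through the peak it shares with ND-ASHI, Idh3g, an isocitrate dehydrogenase subunit (328), Pdhb, of pyruvate dehydrogenase (126), and mAcon1, a mitochondrial aconitase (65.7). Of 10 genes of mitochondrial biogenesis and mitochondrial DNA expression, 2 had one (20%, interval 2.52 to 55.6), mtSSB, which binds single-stranded mitochondrial DNA (188), and PolG2, the accessory subunit of its polymerase (80.7). The 73 mitochondrial ribosomal protein genes had 20 (27.4%, interval 17.6 to 39.1; 15 in replicate 1 and 17 in replicate 2), and the 33 genes of the vacuolar ATPase, the other large rotary proton pump of these cells, had 8 (24.2%, interval 11.1 to 42.3). The interval of the mitochondrial ribosomal protein genes lay just above the 17.5% of all genes, and the other 3 included it. The interval of the respiratory genes, 8.3 to 24.5%, overlapped all of these.

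The mitochondrial ribosomal protein genes with a peak were mRpL4, mRpL18, mRpL20, mRpL23, mRpL24, mRpL32, mRpL34, mRpL37, mRpL39, mRpL41, mRpL42, mRpS2, mRpS6, mRpS10, mRpS18B, mRpS23, mRpS24, mRpS26, mRpS29 and mRpS31, with a median percentile of 54.8. Signals reached 1790 at mRpL41, 1360 at mRpS23 and 1270 at mRpS10, above the 364 of ND-ASHI. The vacuolar ATPase genes with a peak were Vha13, Vha16-1, Vha16-5, Vha26, Vha68-1, Vha100-2, VhaAC39-2 and VhaPPA1-1, with a median percentile of 39.5 and a highest signal of 280 at Vha100-2. The median percentile of the respiratory genes, 44.3, lay between those medians.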

How the data were processed

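Ada2b-eGFP ChIP-seq peaks of 2 biological replicates, 1 group, were used as 8 deposited peak lists: a thresholded and a ranked list of each replicate and 2 of each kind on both. Per the notes deposited with the samples, peaks were made from dm6 alignments with a control. Aligner and peak caller: not given in the sources used here. As deposited, the score column written by the authors is a rescaled IDR, of 830 or more in every thresholded list, and each input's signal in the ranked lists is a further score. The deposited signal is the authors' peak-calling value, not normalized between lists. The deposited −log10 values are −log10 q and, in ranked lists, −log10 IDR. The ranked list that pairs the replicates was recognised by its input signals, of which 99.6% and 99.2% past the threshold recur in the replicates' own ranked lists. The lists do not give read depth, which is unknown here, and intervals cover counting error only.

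Genes and start sites came from Ensembl release 115 and sequences from NCBI Release 6, with no peak past the end of an arm. The conservative list held 4796 peaks on the 7 arms of 4797, replicate 1's list 3761 and replicate 2's 3019. No set test or p-value was computed. The text names every respiratory gene with a promoter peak in the conservative list or a replicate's list, the next 5 by −log10 IDR, all genes of complexes II and III, and related genes with a conservative peak; other genes were named after their values were seen. The members and lists were chosen with earlier results of these data known. In each of 4 related lists 1 symbol was not matched. The limit of 1000 bp for divergent pairs, its alternative of 500 bp, and the core and accessory split of complex I were chosen after seeing the data. Alternatives were other lists, each replicate alone, stricter peaks, other windows and assignments, and other motif windows. Motif letters came from general knowledge of fly core promoters, not from the files. On simulated data 200 of 200 summits and 180 of 180 planted motif matches were recovered. Tools were Python 3.11.15 with scipy 1.17.1, pandas 2.3.3, matplotlib 3.10.9 and numpy 2.4.6.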

Additional observations from a re-analysis of the deposited data

How the results depend on the processing

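Of 96 alternative values 70 stayed within 1.5 times the main count or within the spread of the replicates, 26 moved and 0 reversed. The count of 13 genes was 15 with the other thresholded list, 14 with ranked candidates past the lowest −log10 IDR, 12 at 250 bp, 15 at 1000 bp, 9 for the nearest gene alone, and 10 to 13 leaving out a replicate. The share of all genes moved with the setting too. With ranked candidates it was 17.9% (respiratory genes 16.3%) and at 250 bp 13.7% (14%). At 1000 bp it was 20.7% (17.4%) and for the nearest gene alone 13.1% (10.5%). Using peaks at or above the median signal alone moved the count of 13 to 6 (6.98%, against 10.6% of all genes). That setting left 4 in complex I, 0 in complex III, 1 in complex IV and 1 in ATP synthase. Leaving out a replicate gave 6 to 9 in complex I, 0 to 0 in complexes II and III, 2 to 3 in complex IV and 1 to 2 in ATP synthase. Complex II had 1 at 1000 bp. Complex III had 2 with the other thresholded list, 0 at 250 bp and 2 at 1000 bp. With the nearest gene alone complex IV and ATP synthase each had 1. The median summit position was -114 bp with the other thresholded list, -106 bp at 250 bp, and -127 to -125 bp leaving out a replicate. Among genes with a peak, the window of 250 bp before to 50 bp after the start moved the DRE from 2 to 1, GAGAG from 4 to 1 and the TATA box from 4 to 8. Windows around the summit moved motif 1 from 4 to 1, motif 6 from 1 to 2, the E-box from 4 to 7, GAGAG from 4 to 0 and the TATA box from 4 to 8. The cause of these moves was not tested, apart from the fewer peaks or other windows that the settings themselves bring. With start sites at most 500 bp apart, an alternative chosen after seeing the data, the same count of 11 genes with a peak was divergent. No paired analysis was possible because there is 1 group.

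With 86 genes, 4 to 40 to a complex, the intervals were wide, and a count of 0 in complex II has an interval up to 60.2%. Differences between complexes were not tested. Read depth, the control and the age or cell type of the signal were not analysed here. Replicate errors rest on n = 2.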
